A study of Mus musculus with 6 samples.

Results

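The genes described here are the cytosolic ribosomal protein genes, which encode the proteins of the ribosome outside mitochondria. They were taken by gene symbol (Rps, Rpl or Rplp followed by a number) from a table of 52550 genes measured in the mouse heart. The rule found 85 genes, of which GENCODE M21, the gene annotation of GRCm38, lists 80 as protein-coding and 5 as pseudogenes (Rps3a2, Rps3a3, Rps4l, Rps12l1 and Rpl6l). There were 35 Rps symbols (small subunit) and 50 Rpl and Rplp symbols (large subunit), and they lay on 19 chromosomes. The mice were C57BL/6J, 12 months old, and RNA was taken from the left ventricle. The wild-type group (WT) has 3 libraries, and the other 3 carry the label PGC1alpha overexpressed (PKI). The promoter, cell type or allele behind the overexpression is not given in the sources used here.

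Each ribosome joins a small subunit, which reads the mRNA, to a large subunit, which links the amino acids and holds the tunnel through which the new protein leaves. Most ribosomal proteins are present in 1 copy per ribosome, and their genes are known to be expressed together. Their mRNAs typically begin with a C followed by a run of C and T, the 5′ terminal oligopyrimidine (TOP) motif, through which mTORC1 controls their translation. In the heart, ribosome content sets the capacity for protein synthesis, and growth of cardiomyocytes is accompanied by ribosome production. Mammalian genomes hold many processed pseudogenes of ribosomal protein genes, which arose when their mRNAs were copied back into DNA, so a short read of such an mRNA can match several places.

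The starts of 8 genes are printed because they show the shared pyrimidine run and its exceptions. RefSeq promoter entries (GRCm38.p6) were found for 61 of the 85 genes. A run of at least 6 C or T with a base within 5 bases of the annotated start was present in 32 of the 61 (52.5%), against 23.0% of all 27025 genes with an entry. The same run on the other strand (A or G) was present in 11.5% of the ribosomal protein genes and 24.8% of all genes. The stricter form, a C followed by at least 4 C or T, was found in 47.5% against 19.7%. The motif CCGGAAG, on either strand anywhere in the 300 bases from 250 before the start to 50 after it, occurred in 41.0% of the ribosomal protein genes and 9.93% of all genes. Below, each line runs 5′ to 3′ over the 15 bases before the start and the 15 bases from the start on, with the run of C and T near the start in capitals.
Rps6 (chr4:86857353-86857382, minus strand): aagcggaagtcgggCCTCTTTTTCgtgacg
Rpl38 (chr11:114668565-114668594, plus strand): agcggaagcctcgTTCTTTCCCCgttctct
Rps10 (chr17:27635230-27635259, minus strand): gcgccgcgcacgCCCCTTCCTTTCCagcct
Rpl14 (chr9:120571502-120571531, plus strand): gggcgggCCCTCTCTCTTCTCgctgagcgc
Rps27l (chr9:66946071-66946100, plus strand): ccaCTCCTCCCCgccgcctctatcccggaa
Rps26 (chr10:128626492-128626521, minus strand): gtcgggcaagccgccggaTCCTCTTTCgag
Rps2 (chr17:24720048-24720077, plus strand): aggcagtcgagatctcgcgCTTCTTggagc
Rpl39 (chrX:37085208-37085237, minus strand): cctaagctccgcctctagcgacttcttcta
Rps6, Rpl38, Rps10 and Rpl14 carried runs of 10 or more pyrimidines, Rps2 a run of 6, and Rpl39 had no run of that length within 5 bases of the start, although one lies further into the printed window. The printed genes include some with high values relative to WT (Rps27l, Rpl39, Rps26) and some with low values (Rps2, Rps10, Rpl14). Both sets held genes with a run. Rps3a3 (log2 change −0.72) and Rpl29 (−0.35) were lower than these and are not printed. Over the tested genes with an entry, the median log2 change was 0.28 in the 31 with a run and 0.34 in the 28 without.

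Before the results, some properties of the libraries bear on every value. The labels do not say whether the libraries are from different animals, so the spread behind each p-value may be technical. Ppargc1a, which encodes PGC-1α, had 14.2, 12.8 and 12.4 FPKM in WT and 11.6, 11.8 and 11.4 in the libraries labelled PKI, and so was not higher where the label says overexpression (log2 change −0.16, SE 0.07; limma, adjusted p = 0.0967; exact two-sided permutation p = 0.1, the smallest that 3 against 3 allows). For that reason the groups are called by their labels, and each direction below is that of the label. FPKM, fragments counted per transcript length and per mapped total, depend on what else was mapped in a library. Of the summed FPKM, mitochondrial genes and their nuclear copies took 78.0% to 78.2% in the libraries labelled PKI. In the WT libraries they took a larger part, 81.8% to 82.3%. Their share of the mapped fragments is not known. Results are therefore given as deposited and after dividing each library by a median-of-ratios size factor, called scaled. Scaling moved the median log2 change of all tested genes from 0.21 to −0.022.

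As deposited, ribosomal protein mRNA was higher in the libraries labelled PKI by a small and similar amount across the family. The FPKM of all 85 genes added up to 4428, 4497 and 4576 in WT and to 5630, 5501 and 5497 in the libraries labelled PKI. These are means of 4500 ± 74.1 and 5542 ± 75.8 (SD, n = 3), a ratio of 1.23, and the groups did not overlap. The family made up 0.577%, 0.602% and 0.610% of all FPKM in WT and 0.781%, 0.777% and 0.757% in the libraries labelled PKI. Of the FPKM outside mitochondrial genes and their copies, it made up 3.26%, 3.31% and 3.36% in WT and 3.55%, 3.53% and 3.48% in the libraries labelled PKI, also without overlap. After scaling, the sums were 4955 ± 146 and 4960 ± 94.6 (SD, n = 3), a ratio of 1.00, and the libraries of both groups were interleaved. In bulk tissue, more RNA per cell and more cells of a type that is rich in these mRNAs cannot be told apart.

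**Figure D1:**
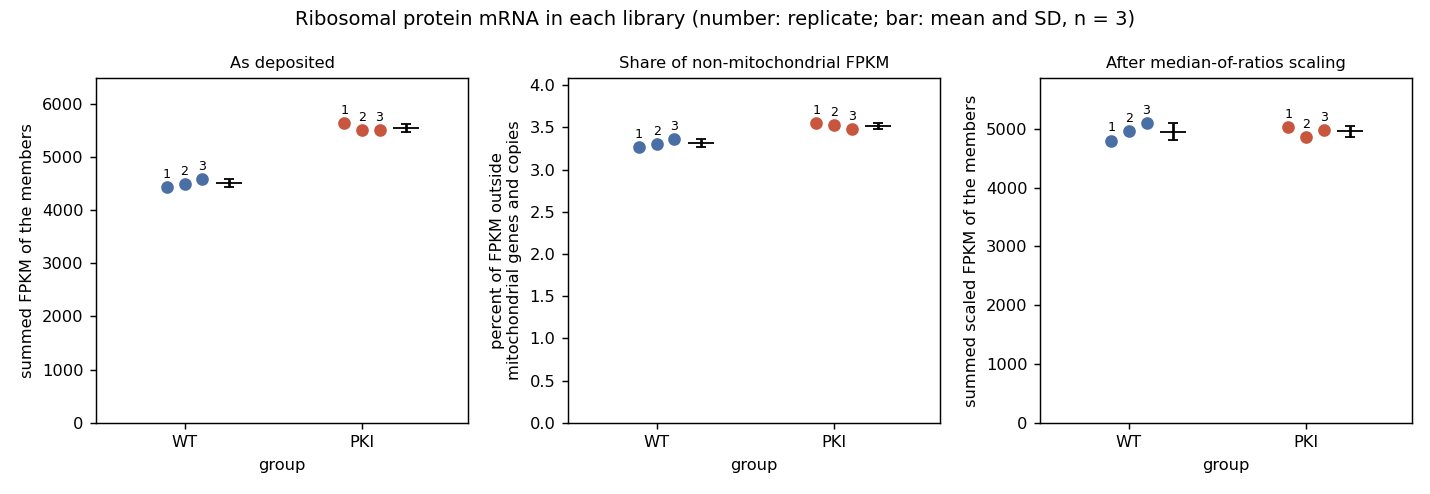
Summed FPKM of the 85 ribosomal protein genes in each of the 6 libraries as deposited (left), their share of FPKM outside mitochondrial genes and copies in percent (middle) and the sum after median-of-ratios scaling (right), with points for libraries and bars for the mean and SD. The libraries labelled PKI lie above WT in the left and middle panels (means 5542 against 4500 FPKM) and among the WT libraries in the right panel (4960 against 4955).

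Gene by gene, 82 of the 85 passed the minimum mean of 1 FPKM and were tested. The other 3 are Rpl10l and Rps12l1, both listed at 0 in every library, and Rpl39l, with 0.209 FPKM in PKI replicate 2 and 0 in the other libraries. Rpl10l and Rpl39l are copies of Rpl10 and Rpl39 known for expression in the testis. As deposited, 60 of the 82 rose (73.2%), where 36.4% of all 9907 tested genes rose, and none fell, where 2.96% of all tested genes fell (limma, adjusted p under 0.05). At an unadjusted p under 0.05, 1 gene was lower, Rps2. The other 22 tested genes were called in neither direction. Without 1 library, between 43 and 51 rose, where 2207 to 3178 of the 9792 to 9990 tested genes rose. The median log2 change was 0.32 (quartiles 0.23 and 0.42), against 0.21 (quartiles 0.07 and 0.35) over all tested genes, and 78 of the 82 values were above 0. In 67 of the 82 every library labelled PKI lay above every WT library, which held for 51.3% of all tested genes, and in none did every such library lie below WT (4.53% of all tested genes).

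After scaling, 1 of the 82 was higher past the threshold, where 7.7% of all tested genes were, and 2 were lower (Rps2 and Rps10), where 9.25% were. The median log2 change was then 0.026, against −0.022 over all tested genes. The groups did not overlap in 14 genes with PKI above WT (16.4% of all tested genes) and in 5 with PKI below (20.8%). With libraries brought instead to the same FPKM total outside mitochondrial genes, 11 were higher (10.1% of all tested genes) and 1 was lower (6.02%), with a median of 0.11. Quantile normalization gave 7 higher (7.6%) and 1 lower (7.69%), with a median of 0.10. Both the median and the number of called ribosomal protein genes thus depended on the scaling.

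**Figure D2:**
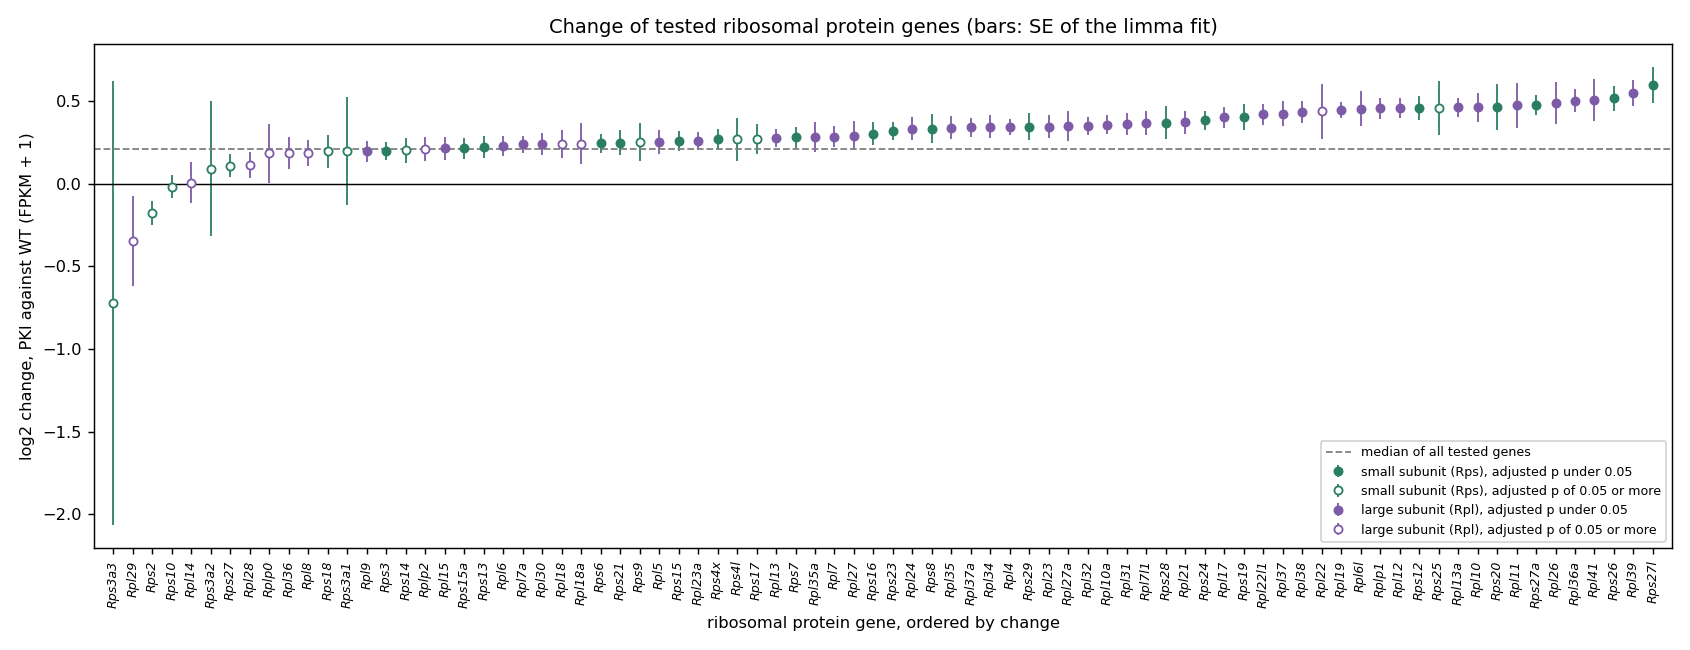
Log2 change in the libraries labelled PKI against WT, on log2(FPKM + 1) as deposited, for 80 of the tested ribosomal protein genes in order of change, with the SE of the limma fit; filled points have an adjusted p under 0.05. Most genes sit between 0.2 and 0.5, Rps27l is highest at 0.60, and Rps3a3, Rpl29, Rps2 and Rps10 are below 0.

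As deposited, the small subunit had 22 of 34 tested genes higher (median log2 change 0.27), and the large subunit 38 of 48 (median 0.34). These counts go by symbol and include pseudogenes. In the small subunit these are Rps3a2, Rps3a3 and Rps4l, none of them called, and in the large subunit Rpl6l, which rose. Over all tested genes 36.4% were higher. Scaled, 1 small subunit gene was higher and 2 were lower, and no large subunit gene was called. The scaled medians were −0.019 and 0.050, and of all tested genes 7.7% were higher and 9.25% lower. Within the small subunit, 10 of the 14 genes of the head, the upper part of the subunit, rose as deposited (median 0.33). So did 11 of the 16 other protein-coding genes (median 0.25), a count without the paralog Rps27l, which also rose. Whether the subunits or their parts differ was not tested.

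Rpl13a (chromosome 7: 45125558 to 45128761, minus strand, GRCm38) encodes a large subunit protein that, when released from the ribosome, joins the GAIT complex, a repressor of translation. Rpl13a had 60.5, 59.9 and 56.9 FPKM in WT and 81.9, 84.1 and 79.0 in the libraries labelled PKI. Its groups did not overlap, and the ratio was 1.38 (log2 change 0.46, SE 0.06; limma, adjusted p = 0.0019). Scaled, it was 0.17 (adjusted p = 0.0724).

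Rps27a encodes small subunit protein eS31 fused to ubiquitin, which is cut off after translation. Rps27a had 29.9, 27.4 and 29.1 FPKM in WT and 41.3, 40.9 and 38.9 in the libraries labelled PKI (log2 change 0.47, SE 0.06; limma, adjusted p = 0.00229). The lowest library labelled PKI lay well above the highest WT library. Rps6, the classic substrate of the S6 kinases, had 93.2, 89.6 and 86.5 FPKM in WT and 106, 111 and 103 in the libraries labelled PKI. Rps6 rose by less than the family median (log2 change 0.24, adjusted p = 0.0165), and its pyrimidine run is printed above. Rps19, in which mutations cause Diamond-Blackfan anaemia, had 8.45, 9.16 and 10.3 FPKM in WT and 12.6, 12.9 and 12.3 in the libraries labelled PKI, without overlap (log2 change 0.41, adjusted p = 0.00901). Of the FPKM of Rps19 and its near-identical copies together, 52.2% was on the gene.

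Rps2 and Rps10 stood at the low end of the small subunit. Rps2 encodes uS5, which lies beside the mRNA entry channel. Rps2 (chromosome 17: 24718116 to 24721929, plus strand) had 117.9, 126 and 130 FPKM in WT and 110, 118.3 and 102 in the libraries labelled PKI. The groups touched, with PKI replicate 2 just above WT replicate 1. As deposited the log2 change was −0.18 (SE 0.07; limma, adjusted p = 0.0863), and scaled it was −0.47 (SE 0.07; limma, adjusted p = 0.00586), which passed the threshold. With its near-identical copies added, Rps2 had 174, 184 and 184 FPKM in WT and 171, 173 and 160 in the libraries labelled PKI, so that the groups no longer overlapped, and the scaled log2 change was −0.40 (limma, adjusted p = 0.00426).

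Rps10, a protein of the small subunit head (chromosome 17: 27630418 to 27636669, minus strand), had 40.9, 39.0 and 37.1 FPKM in WT and 37.4, 36.9 and 41.3 in the libraries labelled PKI. The groups overlapped fully, and the log2 change of −0.02 (SE 0.07, 95% interval −0.182 to 0.146; limma, adjusted p = 0.847) lies below the median of the family. Scaled it was −0.31 (adjusted p = 0.0266). With its copies added, that was −0.23 (adjusted p = 0.054), so the call was lost.

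In the large subunit, 7 of 8 genes around the tunnel exit, where the new protein emerges and targeting factors bind, were higher as deposited. Over all tested genes 36.4% were higher. The tunnel exit genes had a median log2 change of 0.42 (0.13 scaled, none of 8 called). Rpl19 had 114, 118 and 120 FPKM in WT and 158, 164 and 158 in the libraries labelled PKI, with all libraries of a group close together (log2 change 0.45, SE 0.05; limma, adjusted p = 0.00138). Rpl39, among the shortest ribosomal proteins and part of the tunnel wall, had 22.6, 18.5 and 20.9 FPKM in WT and 29.9, 30.6 and 31.2 in the libraries labelled PKI. Its groups were well apart and the ratio was 1.48 (log2 change 0.55; limma, adjusted p = 0.00354). Rpl23a, a docking site of the signal recognition particle and one of the most abundant mRNAs of the family, had 147, 144 and 142 FPKM in WT and 175, 180 and 165 in the libraries labelled PKI (log2 change 0.26, adjusted p = 0.012). Rpl22 had 16.7, 22.6 and 22.9 FPKM in WT and 29.9, 32.8 and 22.7 in the libraries labelled PKI, overlapping in 1 library, and did not pass the test (adjusted p = 0.0709).

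The P stalk, a flexible arm that recruits the elongation factors, is made of Rplp0, Rplp1, Rplp2 and Rpl12 as its base. Rplp1 was the most abundant mRNA of the family, with 226, 236 and 242 FPKM in WT and 333, 297 and 338 in the libraries labelled PKI. All of the latter lay above WT (log2 change 0.45; limma, adjusted p = 0.00327). Rplp2, its partner in the stalk dimer, had only 39.0, 35.6 and 41.8 FPKM in WT and 43.7, 46.3 and 44.8 in the libraries labelled PKI, a smaller difference that did not pass the test (log2 change 0.21, adjusted p = 0.0557). Rpl12 had 20.5, 19.7 and 19.5 FPKM in WT and 28.0, 26.7 and 28.3 in the libraries labelled PKI, without overlap (log2 change 0.46, adjusted p = 0.00226). Levels between genes are compared here per length, as FPKM, and of the FPKM of Rpl12 and its copies, 34.0% was on the gene itself.

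Rpl5 and Rpl11 form a particle with 5S rRNA that, when free of the ribosome, binds MDM2 and holds back the degradation of p53. Rpl5 had 38.4, 36.8 and 40.1 FPKM in WT and 43.0, 50.1 and 44.9 in the libraries labelled PKI, without overlap (log2 change 0.25, SE 0.07; limma, adjusted p = 0.0345). Rpl11 had 23.0, 24.0 and 24.3 FPKM in WT and 30.6, 28.8 and 42.1 in the libraries labelled PKI, where PKI replicate 3 stood above the others (log2 change 0.47, SE 0.14; limma, adjusted p = 0.0312). Both rose as deposited, where 36.4% of all tested genes rose, and neither passed the threshold after scaling (adjusted p = 0.75 and 0.434).

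Other genes of both subunits are given next. Rpl4 and Rpl8, both near the top in abundance, differed in their call. Rpl4, whose long loop lines the tunnel, had 144, 139 and 139 FPKM in WT and 174, 183 and 180 in the libraries labelled PKI (log2 change 0.34, adjusted p = 0.00325). Rpl8, a core protein near the peptidyl transferase centre, had 145, 156 and 174.1 FPKM in WT and 189, 176 and 174.3 in the libraries labelled PKI, a gap of less than 1 FPKM between the groups (log2 change 0.19, adjusted p = 0.0934). Rps15, of the small subunit head, was the second most abundant mRNA, with 198, 214 and 211 FPKM against 260, 238 and 248 (log2 change 0.26, adjusted p = 0.0146). All 4 genes on the X chromosome, Rpl10, Rpl36a, Rpl39 and Rps4x, rose as deposited, where 36.4% of all tested genes rose. Their median log2 change was 0.48 (0.19 scaled, none called). Rpl10, among the last proteins to join the large subunit, had 29.0, 28.4 and 35.2 FPKM in WT and 43.7, 42.8 and 41.2 in the libraries labelled PKI (log2 change 0.46, adjusted p = 0.00897). Rpl36a had 17.1, 16.7 and 17.6 FPKM in WT and 25.3, 26.3 and 22.7 in the libraries labelled PKI (log2 change 0.50, adjusted p = 0.00326). Both kept a clear gap between the groups. Rpl38, known for its role in translating Hox mRNAs, had 41.4, 47.9 and 43.9 FPKM in WT and 60.6, 59.0 and 60.9 in the libraries labelled PKI (log2 change 0.43, adjusted p = 0.00437).

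Some ribosomal protein genes have a paralog, a second gene of related sequence, whose product can in some pairs take the place of the first. The 3 tested paralogs, Rps27l, Rpl22l1 and Rpl7l1, all rose as deposited, where 36.4% of all tested genes rose. Rps27l, a p53 target, had the largest log2 change of the family as deposited, 0.60 (SE 0.11; limma, adjusted p = 0.00716). It had 23.1, 19.1 and 25.1 FPKM in WT and 33.9, 32.0 and 37.0 in the libraries labelled PKI, without overlap. Scaled, none of the 3 tested paralogs passed the threshold, where 7.7% of all tested genes were higher and 9.25% lower. The scaled log2 change of Rps27l was 0.31 (limma, adjusted p = 0.112). Its parent Rps27 had 70.6, 79.4 and 81.3 FPKM in WT and 86.0, 84.1 and 79.4 in the libraries labelled PKI, with overlap, and did not pass the test (log2 change 0.11, adjusted p = 0.247). The coding sequences of the pair differ at 69 of 252 bases (72.6% identity), and no near-identical copy of Rps27l was found. The first 90 coding bases of both are printed to show this, with the differing bases in capitals (24 of 90).
Rps27: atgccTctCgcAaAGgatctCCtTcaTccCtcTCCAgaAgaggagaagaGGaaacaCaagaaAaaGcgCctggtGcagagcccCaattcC
Rps27l: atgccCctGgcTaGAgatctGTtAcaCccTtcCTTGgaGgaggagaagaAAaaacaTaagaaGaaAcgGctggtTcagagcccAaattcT

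A ratio of both genes within a library does not depend on how libraries are scaled. The ratio of Rps27l to Rps27 FPKM was 0.328, 0.240 and 0.309 in WT and 0.394, 0.380 and 0.467 in the libraries labelled PKI, so every library of the latter was higher. On the log2 scale the means were −1.79 ± 0.24 and −1.28 ± 0.16 (SD, n = 3), a difference of 0.51 (exact two-sided permutation p = 0.1, the smallest possible with 3 against 3; 0.15 adjusted over 3 pairs). For Rpl22l1 and Rpl22 the ratio overlapped between the groups, with a log2 difference of 0.08 (exact permutation p = 0.5). For Rpl7l1 and Rpl7 the log2 difference was 0.11 without overlap (exact permutation p = 0.1, adjusted 0.15). In all 3 pairs the design is too small to pass the threshold. Rpl22l1 was the lowest tested gene of the family, with 3.03, 2.94 and 2.91 FPKM in WT and 4.24, 4.49 and 4.18 in the libraries labelled PKI (adjusted p = 0.00394). Rpl7l1 had 9.59, 8.43 and 9.63 FPKM in WT and 12.8, 12.0 and 11.8 in the libraries labelled PKI (adjusted p = 0.0102). Both were clear of the WT range.

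**Figure D3:**
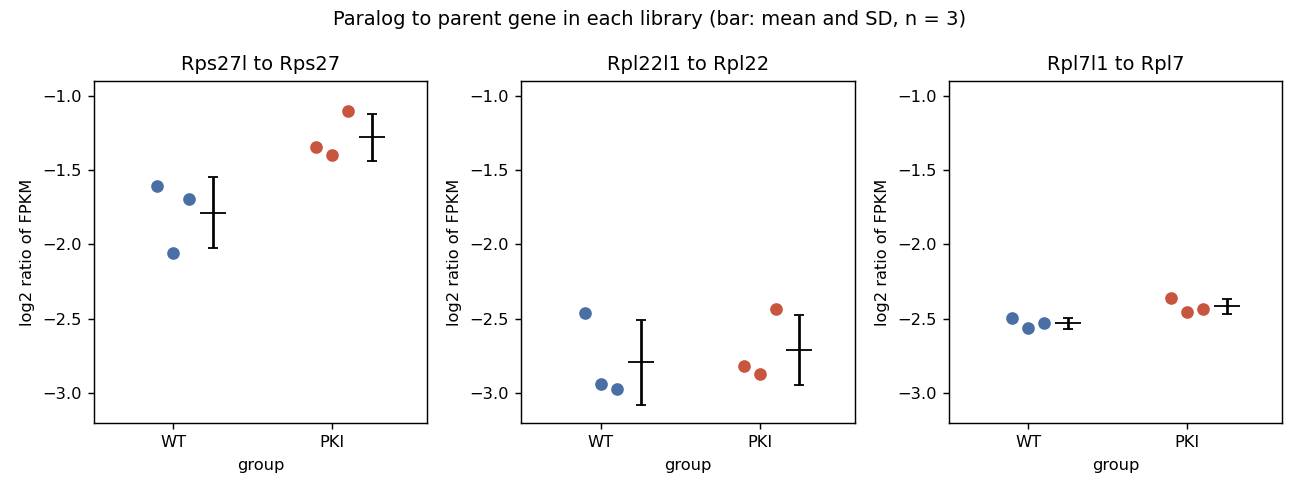
Log2 ratio of FPKM of each paralog to its parent gene in each library, with points for libraries and bars for the mean and SD (n = 3). The ratio of Rps27l to Rps27 is higher in every library labelled PKI (means −1.28 against −1.79), while that of Rpl22l1 to Rpl22 overlaps between the groups.

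Much FPKM was listed on near-identical copies of the ribosomal protein genes. Near-identical copies, defined as annotated transcripts of another gene with at least 95% identity over at least 80% of the coding sequence, were found for most of the family, and the table lists 515 of them. Of these, 418 were above 0 in some library and 185 had a mean of at least 1 FPKM. Of the 80 protein-coding genes, 73 had a copy above 0. In the median gene, 64.4% of the summed FPKM of the gene and its copies was on the gene itself, while 19 genes had under 50% and 18 had at least 90%. The copies outside the 85 genes, so without Rps3a2, Rps3a3 and Rpl6l, added up to 2095, 2065 and 2107 FPKM in WT. In the libraries labelled PKI they added up to 2663, 2557 and 2567, with a ratio of 1.24 of the means.

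The lowest shares on the gene itself were 20.1% for Rpl35a, 21.6% for Rpl41 and 22.2% for Rpl27a. Rpl27a had a pseudogene copy, Gm7536, with an identical coding sequence, which was listed at a mean of 80.5 FPKM. Rpl8, Rplp2, Rps3 and Rps27l were among the genes with all of their FPKM on the gene. Adding the copies moved Rpl41 from rank 45 of the 78 tested coding genes by mean FPKM to rank 9. The fold between the 90th and the 10th percentile of levels narrowed from 7.99 to 6.04. The 78 genes also moved closer to each other in their log2 change, with an interquartile range 0.184 wide on the genes alone and 0.142 wide with copies.

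**Figure D4:**
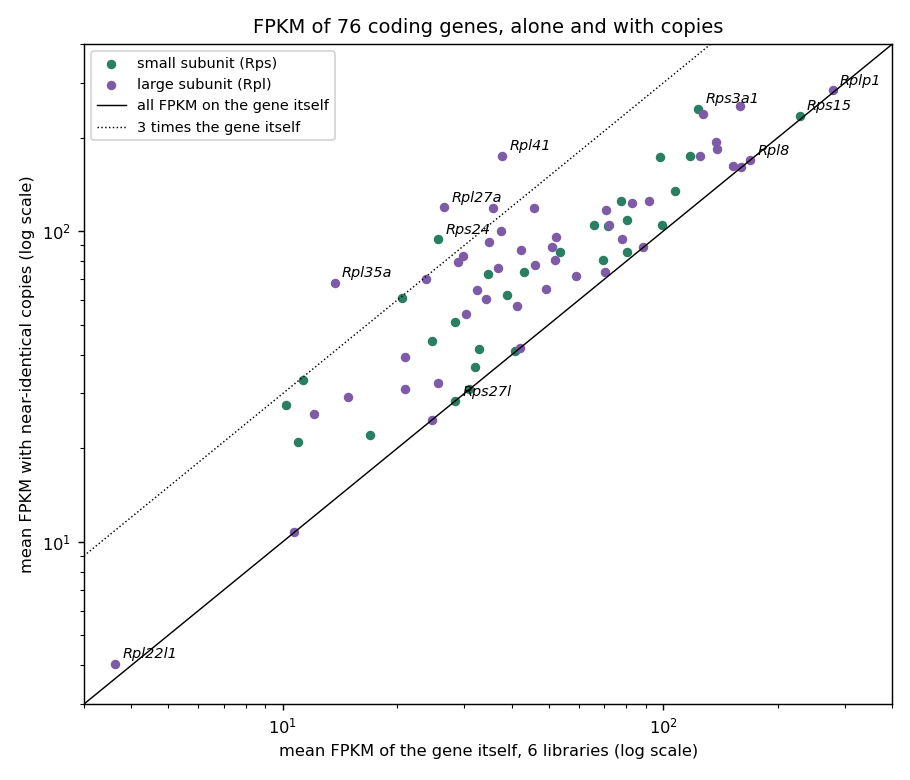
Mean FPKM over 6 libraries of 76 tested coding genes alone (horizontal) and with their near-identical copies (vertical), both on log scales. Points on the solid line have little or no FPKM on copies; the 5 above the dotted line, at more than 3 times the gene alone, are Rpl27a, Rpl31, Rpl35a, Rpl41 and Rps24.

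With copies added, 61 of 79 tested genes rose and none fell as deposited, also at an unadjusted p under 0.05 (36.5% and 3.03% of all tested genes), with a median log2 change of 0.32. Of the genes tested both ways, 56 were called higher on the gene alone and with copies, 3 on the gene alone and 5 with copies only. Scaled, 5 were higher, among them Rps12, Rps26, Rps27a and Rpl39 (8.0% of all tested genes), and Rps2 was lower (9.68%), with a median of 0.019. Rps26, at the exit of the mRNA channel, had 27.5, 28.8 and 24.3 FPKM in WT and 38.2, 39.3 and 38.7 in the libraries labelled PKI on the gene alone. That is a ratio of 1.44, and with copies the scaled log2 change was 0.26 (limma, adjusted p = 0.0239). Rps12, of the head, had 25.8, 22.1 and 23.2 FPKM in WT and 33.2, 33.5 and 31.8 in the libraries labelled PKI, a ratio of 1.39. Neither gene's groups overlapped.

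Rps3a1, which encodes small subunit protein eS1, and its copies Rps3a2 and Rps3a3, both annotated as processed pseudogenes, had opposite levels across libraries. Whether reads of the gene were assigned to its copies or the copies were themselves expressed was not tested. Over 792 coding bases, Rps3a2 differs from Rps3a1 at 4 and Rps3a3 at 9. Counted from 1 at the first base of the start codon, Rps3a2 carries T216C, T534C, A645T and T668C, and Rps3a3 shares T216C and T534C. Coding positions 609 to 668 are printed because they show how few bases separate the rows, with the positions that differ in capitals.
Rps3a1: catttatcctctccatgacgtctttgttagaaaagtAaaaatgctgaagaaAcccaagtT
Rps3a2: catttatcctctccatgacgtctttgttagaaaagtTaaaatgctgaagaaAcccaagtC
Rps3a3: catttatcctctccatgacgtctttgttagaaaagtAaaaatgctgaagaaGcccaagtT

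Rps3a1 (chromosome 3: 86137940 to 86142702, minus strand) had 127, 129 and 80.7 FPKM in WT and 98.7, 211 and 95.5 in the libraries labelled PKI. Rps3a2 (chromosome 14: 88123017 to 88123808, minus strand) had 48.3, 40.6 and 63.5 in WT and 79.6, 25.8 and 72.7 in the libraries labelled PKI. Rps3a3 (chromosome 13: 108670603 to 108671397, plus strand) had 35.0, 31.6 and 70.9 in WT and 89.9, 1.32 and 88.4 in the libraries labelled PKI. In PKI replicate 2 the gene was highest and both copies were lowest, and in WT replicate 3 and PKI replicates 1 and 3 the gene was low and the copies high. The sum of all 3 was 211, 201 and 215 in WT and 268, 238 and 257 in the libraries labelled PKI, without overlap. None of the 3 passed the test alone (adjusted p = 0.644, 0.872 and 0.681), and the log2 change of −0.72 of Rps3a3 had an SE of 1.34. Without PKI replicate 2, that value was 1.04 (adjusted p = 0.0583).

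With all its copies added, Rps3a1 was higher by a log2 change of 0.28 (limma, adjusted p = 0.0286), and the coefficient of variation was 4.81% in WT and 9.19% in the libraries labelled PKI, against 24.3% and 48.7% on the gene alone. Since reads could match more than 1 of these sequences, the level of Rps3a1 alone, or of either pseudogene, is uncertain. Rplp0, the base of the P stalk and often used as a reference gene in PCR, also moved opposite to a copy. Rplp0 had 104, 144 and 109 FPKM in WT and 122, 170 and 115 in the libraries labelled PKI, while its pseudogene Gm8730 (98.7% identical) had 94.9, 51.7 and 101 in WT and 124, 59.6 and 116 in the libraries labelled PKI. In both groups replicate 2 had the highest Rplp0 and the lowest Gm8730. With copies, Rplp0 had 219, 208 and 231 FPKM in WT and 268, 244 and 253 in the libraries labelled PKI, which was higher by a log2 change of 0.22 (adjusted p = 0.0292), whereas Rplp0 alone did not pass the test (adjusted p = 0.424).

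**Figure D5:**
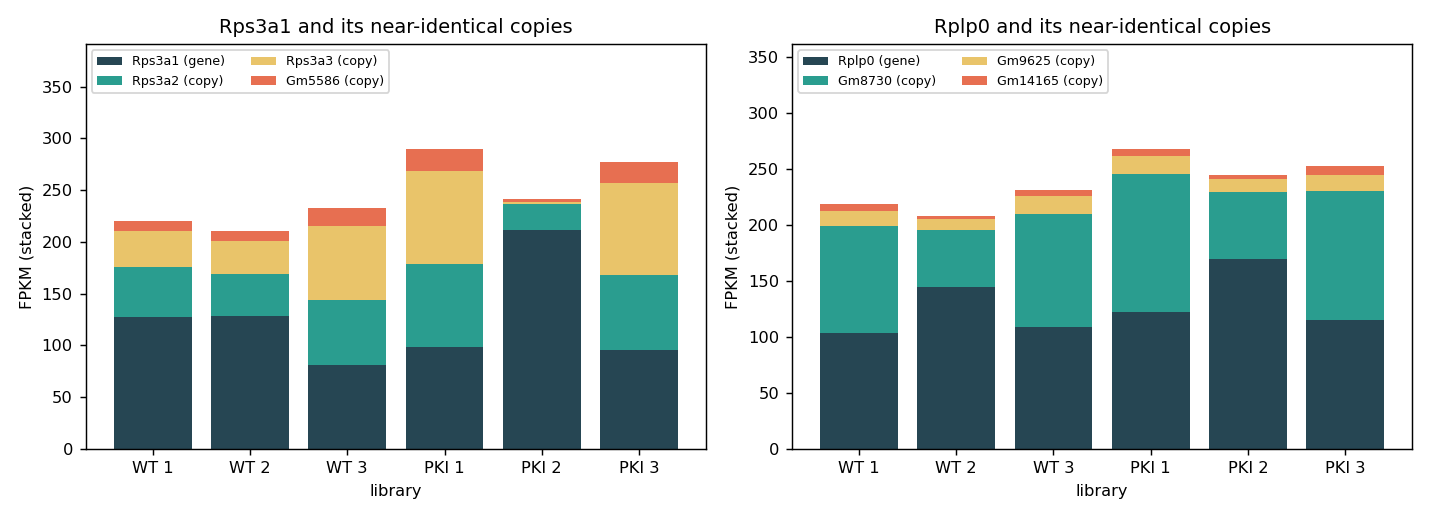
Stacked FPKM of Rps3a1 (left) and Rplp0 (right) and of the 3 copies of each with the most signal, per library. The height of the stacks varies little within a group while the part on the gene itself runs from 80.7 to 211 FPKM for Rps3a1 and from 104 to 170 for Rplp0.

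Rpl29 and Rpl14 varied between libraries in a way that adding copies did not remove. Rpl29, a small basic protein also known as a heparin-binding protein, had 44.4, 61.1 and 56.4 FPKM in WT and 34.1, 32.1 and 66.8 in the libraries labelled PKI. PKI replicate 3 was the highest library and PKI replicates 1 and 2 the lowest, and the log2 change of −0.35 (SE 0.27) did not pass the test (limma, adjusted p = 0.331). With copies its coefficient of variation in the libraries labelled PKI was 31.1%, against 44.0% alone. Rpl14 had 53.6, 49.1 and 48.9 FPKM in WT and 42.9, 49.9 and 61.0 in the libraries labelled PKI, where the lowest and the highest library both carried the label PKI (log2 change 0.01, SE 0.12; adjusted p = 0.969). In all, 8 of the tested genes had a coefficient of variation over 20% in at least 1 group.

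Genes that make and regulate ribosomes were read beside the family from lists chosen by function. Over all tested genes, 36.4% rose and 2.96% fell as deposited, and 7.7% rose and 9.25% fell after scaling. Ribosomal proteins whose symbols fall outside the rule gave 4 of 5 higher as deposited (median log2 change 0.26) and 1 after scaling (median −0.031). That gene was Fau, a fusion of a ubiquitin-like protein with small subunit protein eS30, which rose from 59.8 ± 1.18 to 84.2 ± 2.72 FPKM (SD, n = 3; limma, adjusted p = 0.00132). Of the ribosome biogenesis factors, which process rRNA and assemble the subunits, 32 of 45 tested rose and none fell, also at an unadjusted p under 0.05 (median 0.32). Scaled, the median was 0.09, with none called by limma and 9 at an unadjusted p under 0.05, counted in either direction. Among the biogenesis factors as deposited, Gnl3, nucleostemin, rose from 6.53 ± 0.865 to 10.5 ± 0.794 FPKM. Sbds, which releases eIF6 from the large subunit, rose from 14.6 ± 0.661 to 20.5 ± 1.22 (SD, n = 3). Of RNA polymerase I and its factors, which transcribe rRNA, 6 of 12 tested rose (median 0.30; 0.09 scaled). Polr1e had a ratio of 1.70 (limma, adjusted p = 0.00229) and was the only one past the threshold after scaling (adjusted p = 0.0181).

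Of the mTORC1 and S6 kinase pathway, 7 of 19 tested genes rose and 1 fell as deposited (median 0.22), near the share over all genes, and after scaling none rose and 2 fell (median −0.0034). Eif4ebp1, the translation repressor that mTORC1 inactivates, rose from 14.8 ± 0.693 to 21.4 ± 1.08 FPKM (SD, n = 3; limma, adjusted p = 0.00262), but did not pass the threshold after scaling (adjusted p = 0.0736). Of the MYC network, the 5 tested genes gave no call (limma; 1 gene, Mlx, at an unadjusted p under 0.05), with a median of 0.17, and Myc, Mycn, Mycl and Mxd1 were below the minimum mean. Of the other mRNAs known to carry a TOP motif, 10 of 16 rose as deposited (median 0.31) and 3 after scaling (median 0.012). Eef1a1, which brings aminoacyl-tRNA to the ribosome, rose from 138 ± 6.62 to 249 ± 19.5 FPKM, a ratio of 1.81, where the highest of the family was 1.53 for Rps27l, and was past the threshold after scaling (limma, adjusted p = 0.00276), as did Pabpc1 and Eif3h. Of the p53 targets, 7 of 8 tested rose as deposited (median 0.41) and 2, Cdkn1a and Phlda3, after scaling (median 0.20). Cdkn1a, the cell cycle inhibitor p21, had 2.38, 1.77 and 1.53 FPKM in WT and 7.30, 6.82 and 7.70 in the libraries labelled PKI, a ratio of 3.85 (limma, adjusted p = 0.000536). Phlda3 had a ratio of 4.09 (adjusted p = 0.000591).

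Markers of some other cell types differed between the groups. The counts below stand beside 36.4% of all tested genes higher and 2.96% lower as deposited. After scaling these shares were 7.7% and 9.25%. Of 8 fibroblast markers 7 rose (median log2 change 1.66), and their FPKM added up to 86.3 to 128 in WT and 256 to 333 in the libraries labelled PKI. All 8 macrophage markers rose, with sums of 70.1 to 108 and 212 to 229, and 3 of 6 endothelial markers rose, with sums of 63.3 to 68.8 and 71.7 to 76.7. After scaling 7 fibroblast and 7 macrophage markers were higher, while no endothelial marker was higher and 1 was lower. None of the 8 lymphocyte markers reached the minimum mean, with sums of 0.524 to 0.824 and 0.774 to 0.883. All 5 red blood cell markers fell, also after scaling, with sums of 380 to 538 in WT and 274 to 338 in the libraries labelled PKI. Of the 8 ventricular cardiomyocyte markers, which define the labelled tissue and were abundant in every library, 1 rose and 3 fell as deposited and 7 fell after scaling. Their median log2 change as deposited was −0.09. Their sums overlapped, at 10299 to 11035 FPKM in WT and 10609 to 11576 in the libraries labelled PKI. No defining marker was at 0 in all libraries. The part of these differences in the ribosomal protein values was not tested.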

How the data were processed

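Genes were selected by symbol, and the members, lists and alternatives were chosen with earlier results of these data known. A few family members are not reported here. RNA was taken from left ventricular tissue, 3 libraries per group. The deposited unit is FPKM per gene, as the deposited table is named, with depth unknown, so no counting interval is given. CASAVA, Bowtie 0.12.2 and build mm9 are named in the submitters' processing notes. The sources used here do not give the program that made the FPKM, its annotation or how it treated reads with several matches. The kit named in the labels' protocols does not mark strand, so antisense neighbours cannot be told apart. The table has no coordinates: gene positions are from GENCODE M21 (GRCm38) by identifier, and promoters from RefSeq (GRCm38.p6).

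Every gene whose mean reached 1 FPKM was tested on log2(FPKM + 1) with limma (two-sided, with a variance trend and no block), adjusted by Benjamini-Hochberg across all genes tested, and called at an adjusted p under 0.05. Log2 changes on that scale understate the change of low genes; ratios are of mean FPKM. Each adjusted p is from limma. The fit was tested on simulated data, where 45 of 69 genes changed by a fold of 1.5 were recovered and 8 of 178 calls were false. The simulation held no smaller fold and no shift common to all genes, so it does not cover changes of that kind. Paralog ratios used exact permutation tests. Copies were found with blastn 2.17.0 against GENCODE M21 transcripts and their FPKM added to the gene, an alternative chosen after seeing the data; since the lengths behind each FPKM are unknown, the sums are approximate.

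Named genes were Ppargc1a, the 8 members with the smallest p among those higher, those called after scaling, the 5 most abundant, the stalk, 5S and paralog lists, a few of known role (Rps6, Rps19, Rps27a, Rpl10, Rpl13a, Rpl38), those below the minimum, and the 3 of each other list with the smallest p. Rps3a1, Rps3a2, Rps3a3, Rpl29, Rpl14, Rps26, Rps12, Rpl39, Rps27, Rpl22, Rpl7, Rpl41, Rpl35a and Rpl27a were chosen after their values were seen. Alternatives were other scalings, pseudocounts, filters, variance settings, leaving out each library and a block for the replicate number.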

Additional observations from a re-analysis of the deposited data

How the results depend on the processing

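The number of calls depended on the scaling. As deposited 3902 genes were called, against 1668 after median-of-ratios scaling, 1592 with the FPKM total outside mitochondrial genes, 1515 after quantile normalization, 1925 with a minimum mean of 5 FPKM (3935 genes tested) and 1707 with copies added and scaled. The ribosomal protein counts and medians under these scalings stand in the report: 1, 11, 7 and 5 higher, 2, 1, 1 and 1 lower, with medians of 0.026, 0.11, 0.10 and 0.019. Array weights gave 60 higher and 1 lower (Rps2), where 4067 and 354 of all 9907 tested genes were. Pseudocounts of 0.1 and 0.5 gave 59 higher, where 3574 and 3582 of all 9907 were. No filter gave 46 higher (2746 of all 24705 tested genes) and the minimum of 5 FPKM 62 (1739 of 3935). No variance trend gave 58 higher (3632 of 9907). Leaving out each library gave 2372 to 3439 calls, 43 to 51 ribosomal protein genes higher, 0 to 1 lower (Rpl29, without PKI replicate 3) and a median of 0.30 to 0.33. Of the 9792 to 9990 genes then tested, 2207 to 3178 were higher and 165 to 261 lower. Without WT replicate 3 there were 2372 calls and without PKI replicate 3 there were 2429. Ppargc1a ranged from −0.20 to −0.11 without 1 library, and was −0.44, −0.36, −0.42 and −0.44 under the 4 scalings, where it passed the threshold. The share of the family was higher by 0.175 percentage points of all FPKM (0.166 to 0.183 without 1 library), by 0.207 points outside mitochondrial genes and by 0.260 points with copies. The log2 ratio difference without 1 library ranged from 0.37 to 0.60 for Rps27l, from −0.05 to 0.25 for Rpl22l1 and from 0.09 to 0.13 for Rpl7l1.

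As deposited, 78 of the 82 tested ribosomal protein genes had a log2 change above 0, against 44 after median-of-ratios scaling, 66 with the total outside mitochondrial genes and 64 after quantile normalization. Of the 38 genes whose single values were recomputed, the following changed sign, none past the threshold with the changed sign. Under median-of-ratios scaling these were Rpl14 (−0.29), Rpl23a (−0.038), Rpl5 (−0.041), Rpl7 (−0.0092), Rpl8 (−0.11), Rplp0 (−0.11), Rplp2 (−0.083), Rps15 (−0.040), Rps27 (−0.19), Rps3a1 (−0.10), Rps3a2 (−0.20) and Rps6 (−0.051). With copies added and scaled they were Rpl14 (−0.21), Rpl23a (−0.033), Rpl5 (−0.034), Rpl8 (−0.11), Rplp0 (−0.080), Rplp2 (−0.083), Rps15 (−0.043), Rps27 (−0.17), Rps3a1 (−0.019) and Rps6 (−0.051). With the total outside mitochondrial genes they were Rpl14 (−0.20), Rpl8 (−0.026), Rplp0 (−0.029), Rps27 (−0.10), Rps3a1 (−0.016) and Rps3a2 (−0.12), and after quantile normalization Rpl14 (−0.22), Rplp2 (−0.0080), Rps27 (−0.065) and Rps3a2 (−0.13). Rps10 was 0.027 with array weights and 0.066 with copies added. Without 1 library, the range was −0.068 to 0.015 for Rps10, −0.12 to 0.12 for Rpl14, −0.18 to 0.39 for Rps3a1, −0.20 to 0.60 for Rps3a2 and −1.61 to 1.04 for Rps3a3.

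The deviations of same-numbered libraries had correlations of −0.10, 0.001 and 0.05 across genes, within the −0.13 to 0.11 of differently numbered libraries. With 3 libraries per group this cannot decide whether the numbers pair the samples, so pairing is unknown. With the replicate number as a block, 44 ribosomal protein genes were higher and none lower. In all, 2849 of 9907 genes were called, 2625 higher and 224 lower. Depth is unknown and 3 libraries per group limit the precision.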
